A study of Mus musculus with 6 samples.

Results

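Among the genes measured on the cerebral cortex arrays of SAMR1 and SAMP8 mice, 10 immediate-early genes were examined: *Fos*, *Fosb* and *Fosl2* of the Fos family, *Junb* of the Jun family, the zinc finger genes *Egr1*, *Egr2*, *Egr3* and *Egr4*, the nuclear receptor *Nr4a1*, and *Ier2*. They were selected on the group averages of these same data, by name, with differences between SAMP8 groups already seen, so their differences are given as a description and not as evidence. Every probe set whose gene symbol entry held 1 of these names was taken, which gave 13 probe sets of 45077 on the array and 10 genes of 22527 named there. On this kind of array several short probes that read 1 transcript are summarised as a probe set. *Fosl2*, *Egr2* and *Egr3* had 2 probe sets each and the other 7 genes had 1, and each of the 13 carried a single gene symbol.

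All animals were male mice, labelled 16 weeks old. The methods give this age ahead of acclimatization, administration and the maze, and the age at which cortex was taken is not given. SAMR1 + Water were senescence-resistant SAMR1 mice given water, SAMP8 + Water were senescence-accelerated SAMP8 mice given the same volume of water and served as the SAMP8 control, and SAMP8 + STEE were SAMP8 mice given sugarcane top ethanolic extract (STEE) by mouth at 20 mg/kg. Administration lasted 30 days and went on through 8 days of the Morris water maze, and all groups went through it. Per the methods, BrdU was also added to the drinking water, and for the histology the mice were killed on the day after the last swim; the hour at which cortex was taken is not given in the sources used here. SAMR1 is a related but separate inbred strain, so a difference between SAMP8 and SAMR1 contains every genetic difference between them. The arrays covered 2 mice a group, but the values deposited are 1 average per group on the log2 scale, to 2 decimals. No spread between mice entered the values below, and no test of any difference could be made. A difference of 2 rounded averages carries a rounding error of up to 0.01. Differences of at least 0.3 on the log2 scale, which is 1.23-fold, are counted as past the threshold.

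Immediate-early genes are switched on within minutes of a stimulus from transcription factors that already sit in the cell, without new protein synthesis. In neurons, synaptic activity and calcium entry act through kinases on CREB, which binds the cyclic AMP response element (CRE), and on SRF with its ternary complex partners, which bind the CArG box. Fos family proteins pair with Jun family proteins to form AP-1, EGR proteins bind GC-rich sites through zinc fingers, and NR4A1 binds DNA as an orphan nuclear receptor. In cerebral cortex their mRNAs are commonly read as traces of recent neuronal activity, and *Egr1* is high even at rest.

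The DNA in front of the genes is shown because 6 of the 7 genes with a promoter in the RefSeq table of GRCm38.p6 shared a CRE half-site there. The table held *Fos*, *Fosb*, *Fosl2*, *Junb*, *Egr2*, *Egr4* and *Nr4a1*; *Egr1*, *Egr3* and *Ier2* were not matched. The 250 bases before each annotated start were read on both strands. The lines below run 5′ to 3′ along the gene, and capitals mark CRE half-sites (TGACG, or CGTCA on the other strand), the CArG box and the TATA box (TATAAA). *Fos* lies on the plus strand at chr12:85473640-85473889, *Junb* on the minus strand at chr8:84978749-84978998, *Egr4* on the minus strand at chr6:85513590-85513839 and *Nr4a1* on the plus strand at chr15:101266596-101266845. For *Egr2*, which had 5 annotated starts, 30 bases on the plus strand at chr10:67537792-67537821 are given.
Fos: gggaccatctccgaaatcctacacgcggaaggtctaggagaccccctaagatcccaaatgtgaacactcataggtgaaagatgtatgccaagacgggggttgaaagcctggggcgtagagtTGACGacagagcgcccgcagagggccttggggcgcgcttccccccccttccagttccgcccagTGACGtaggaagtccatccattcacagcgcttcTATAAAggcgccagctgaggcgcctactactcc
Junb: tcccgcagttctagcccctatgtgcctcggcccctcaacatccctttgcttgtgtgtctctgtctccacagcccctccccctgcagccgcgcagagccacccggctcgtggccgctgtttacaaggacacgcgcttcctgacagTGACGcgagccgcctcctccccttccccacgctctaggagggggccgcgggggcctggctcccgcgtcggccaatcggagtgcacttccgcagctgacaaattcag
Egr4: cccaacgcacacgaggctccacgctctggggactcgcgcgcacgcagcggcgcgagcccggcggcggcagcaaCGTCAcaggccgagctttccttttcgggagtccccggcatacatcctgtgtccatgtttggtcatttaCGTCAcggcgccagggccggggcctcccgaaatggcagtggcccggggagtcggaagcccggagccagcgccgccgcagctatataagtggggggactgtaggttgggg
Nr4a1: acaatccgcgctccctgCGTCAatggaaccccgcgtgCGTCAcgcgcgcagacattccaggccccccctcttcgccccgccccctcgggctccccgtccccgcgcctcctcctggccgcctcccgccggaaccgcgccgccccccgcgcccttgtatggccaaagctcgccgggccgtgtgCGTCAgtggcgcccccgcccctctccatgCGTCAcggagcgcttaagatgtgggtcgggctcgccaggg
Egr2: tcagtCCATATATGGgcagcgaCGTCAcgg

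*Nr4a1* held 4 CRE half-sites in these 250 bases, *Fos* and *Egr4* held 2 each, and *Junb* and *Fosb* held 1 each. In *Fos* they lay 129 to 125 and 66 to 62 bases before the start, the second ahead of a TATA box at 33 to 28. Of the 7 genes searched, *Egr2* alone had a CArG box in this window, and bases farther upstream were not searched. At the third of its starts the box lay 72 to 63 bases upstream, between half-sites at 111 to 107 and 55 to 51. Of its 5 starts, 3 had a CArG box together with half-sites, and the others had no half-site in the window. Half-sites were found before at least 1 start of 19.8% of the 27025 genes in the table, and *Egr2* had more starts than most. A CArG box was found for 1.62% of genes and TATAAA for 14.3%. The full CRE (TGACGTCA), found for 1.77% of genes, was in none of the 7 members. The EGR site GCGNGGGCG, found for 5.33% of genes, stood before *Fosb*, *Fosl2* and *Nr4a1* and overlapped no half-site. The AP-1 site TGANTCA (7.82% of genes) and the NR4A site AAAGGTCA (1.55%) matched no member in this window. *Fosl2* had no half-site in it. These matches describe letters in a window and not binding.

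**Figure D1:**
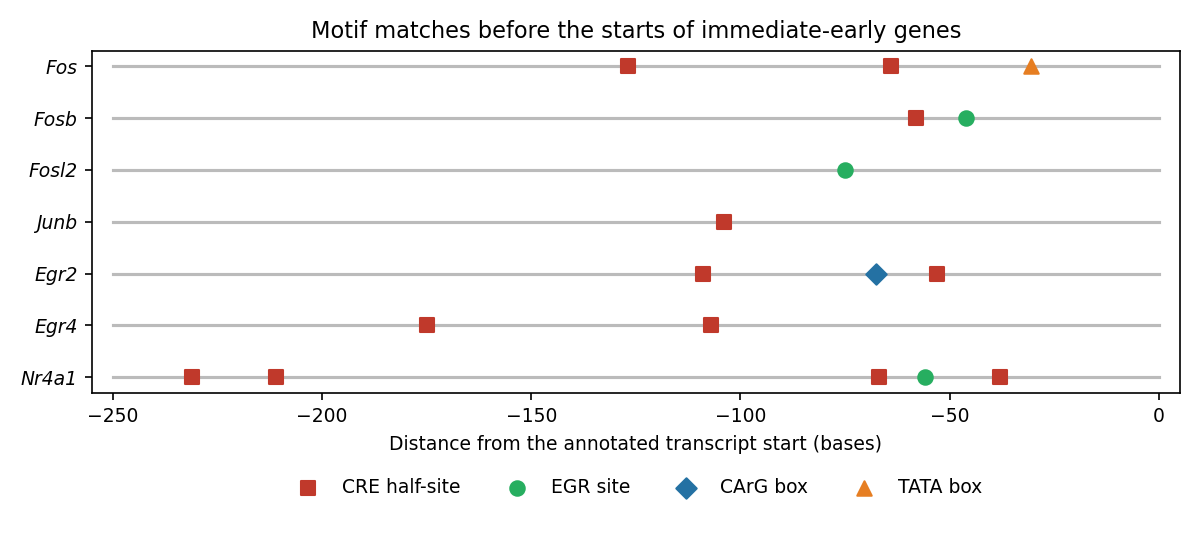
Motif matches in the 250 bases before the annotated start of the 7 members with a promoter in the RefSeq table, 1 line per gene, with the distance from the start in bases on the horizontal axis (for *Egr2*, the third of its 5 starts). CRE half-sites (squares) stand on 6 of the 7 lines, and the CArG box (diamond) on the line of *Egr2* alone.

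STEE-fed SAMP8 mice had lower averages than SAMP8 control for all 10 genes, and 7 of them, *Fos*, *Fosl2*, *Junb*, *Egr1*, *Egr2*, *Egr4* and *Nr4a1*, were lower by at least 0.3 on the log2 scale. Of all 45077 probe sets, 0.595% were lower by this much and 0.668% were higher. The median log2 difference over the 10 genes was -0.57 (range -1.23 to -0.03), against 0.00 over all probe sets, and none of the 10 was higher with STEE. Each gene is given here by the probe set with the highest average signal, and 8 of all 13 probe sets were past the threshold. The shared direction belonged to the way the genes were selected and is no independent support for it. The SAMP8 control average enters this comparison and that with SAMR1, so any error in it enters the differences of both, with opposite sign.

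*Fos*, which encodes the AP-1 subunit c-Fos, averaged 8.51 in SAMR1, 8.66 in the SAMP8 control group and 7.46 under STEE (log2 signal, the authors' mean). The averages of both water groups were close together, and that of the STEE group stood apart below them. From SAMP8 control to STEE the log2 difference was -1.20, a level of 0.435 of the control, and 4 of the 45077 probe sets, *Fos* included, had a difference this low. *Fosb*, whose splice form ΔFosB persists in neurons under repeated stimulation, was 5.17 in SAMR1, 5.52 in SAMP8 control and 5.26 with STEE. Its difference with STEE was -0.26, just short of the threshold, and 505 probe sets were at or below it. The deposited table does not tell ΔFosB from full-length FosB. *Fosl2* encodes Fra-2, a Fos protein without a strong activation domain that appears later after a stimulus. At its brighter probe set it was 5.98 in SAMR1, 6.74 in SAMP8 control and 6.28 with STEE, which placed STEE-fed SAMP8 between the water groups and -0.46 from SAMP8 control. Its dimmer probe set was almost level, at 4.87, 4.92 and 4.86. The size of the *Fosl2* differences thus depended on the probe set.

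*Junb* encodes a Jun protein that pairs with Fos proteins and often acts more weakly on target genes than c-Jun. Its average was 6.06 in SAMR1, 5.88 in SAMP8 control and 5.19 with STEE. Its order of groups differed from that of *Fos*: SAMR1 was highest. With STEE it was lower than SAMP8 control by a log2 difference of -0.69, a level of 0.620, and 19 of 45077 probe sets were this low or lower. At their brighter probe sets, *Jun* differed by -0.03 and *Jund*, which is expressed without stimulation, by -0.02. The other probe set of *Jun* differed by -0.21 and that of *Jund* by 0.07.

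The Egr genes did not share 1 pattern. *Egr2*, also known as Krox20, had averages of 5.38 in SAMR1, 5.77 in SAMP8 control and 4.54 with STEE, a log2 difference of -1.23 and a level of 0.426 of the control. Its second probe set gave 4.33, 4.77 and 3.41, a difference of -1.36, so both showed the same order of groups and a similar size. In STEE-fed SAMP8 the signal of that second probe set lay under the array's median of 4.15, where probe background makes up more of a signal. Over all 45077 probe sets, 6 were lower with STEE by at least 1 on the log2 scale, and 3 of the 6 were those of *Egr2* and *Fos*.

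*Egr1*, also known as Zif268 and tied to synaptic plasticity, was 10.27 in SAMR1, 10.76 in SAMP8 control and 10.19 with STEE. SAMP8 control stood above both other groups, which differed by -0.08. *Egr4* was 5.0, 5.25 and 4.68 in the same order of groups. *Egr1* and *Egr4* both differed by -0.57 with STEE, a level of 0.674 of the control, and 35 of 45077 probe sets were at or below this value.

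*Egr3*, which encodes a further zinc finger factor of the family, stood apart from the other Egr genes. Its average was 9.42 in SAMR1 and 10.03 in SAMP8 control, and STEE-fed SAMP8 was at a log2 difference of -0.03 from the latter. Both SAMP8 groups were thus nearly equal and above SAMR1. Its dimmer probe set was level in all groups, at 4.20, 4.20 and 4.18, near the median signal of the array.

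*Nr4a1*, also known as Nur77, was 8.77 in SAMR1, 8.91 in SAMP8 control and 8.34 with STEE. As for *Fos*, the water groups lay close together and the STEE group below them, with a log2 difference of -0.57 from SAMP8 control. Within its family, *Nr4a3* gave 7.05, 7.47 and 6.46, a difference of -1.01 at its brightest of 3 probe sets and of -0.01 at the least changed, whereas *Nr4a2* gave 8.27, 8.43 and 8.34, a difference of -0.09. *Ier2*, a nuclear protein gene of the early growth factor response, was nearly level at 5.16, 5.05 and 5.0. Its difference with STEE was -0.05, and 13825 probe sets were at or below it.

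**Figure D2:**
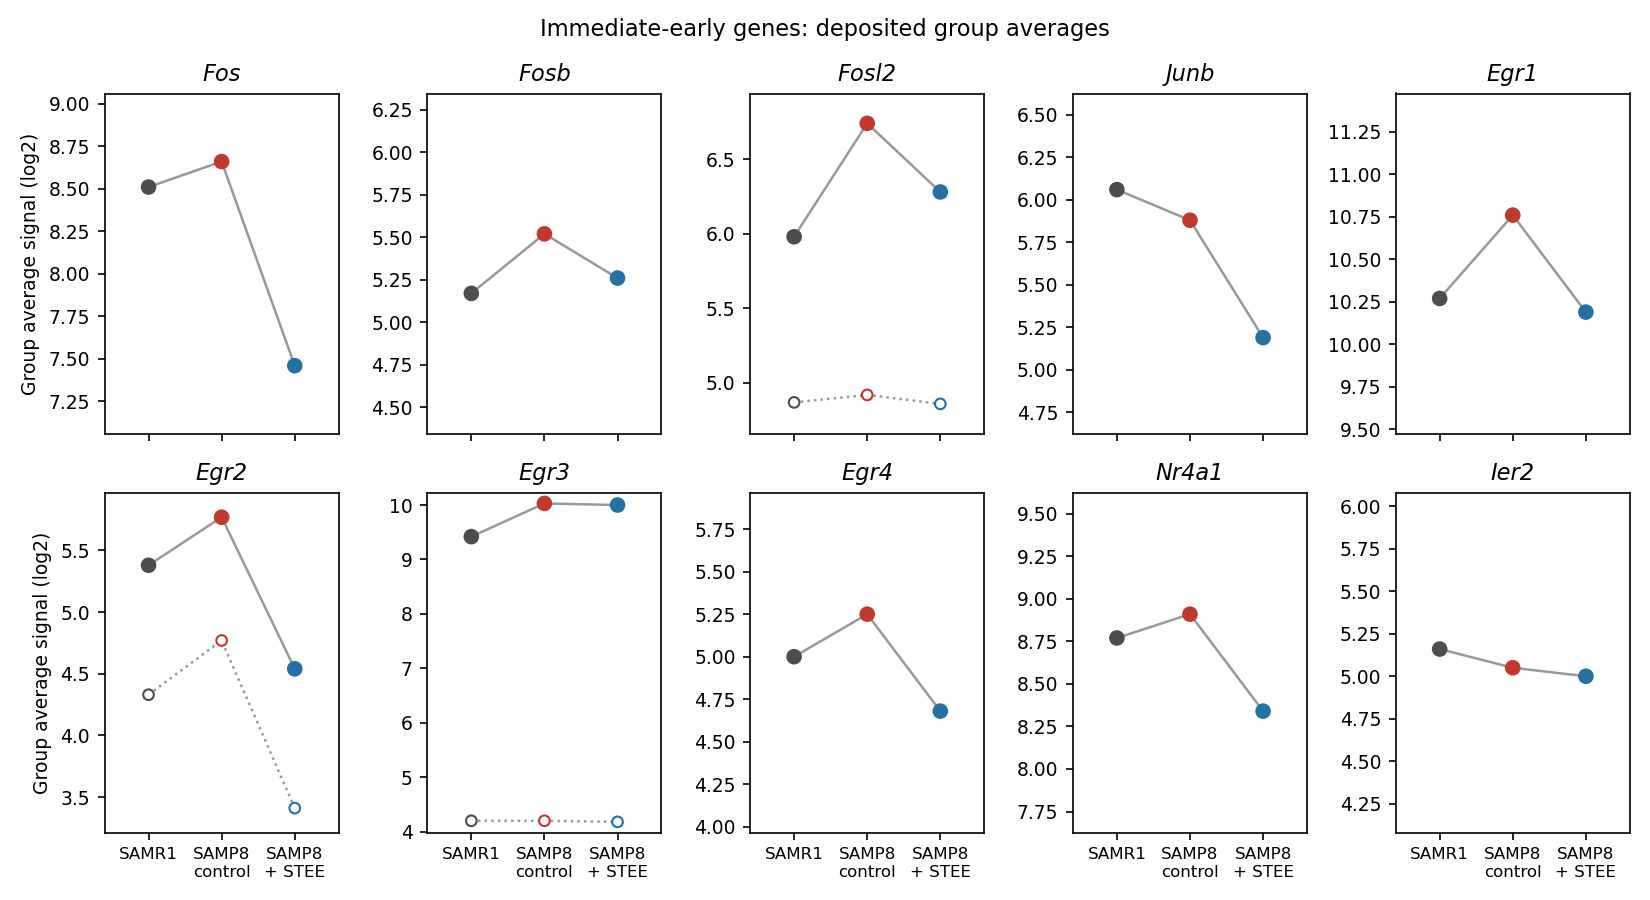
Group averages of the log2 signal as deposited by the authors for the 10 genes in SAMR1, SAMP8 control and STEE-fed SAMP8, with filled points for the brighter probe set of a gene, open points for its other probe set, and lines that join the averages of 1 probe set; the vertical axis of each panel has its own range. No error bars are drawn, since the values are 1 average per group. STEE-fed SAMP8 is the lowest group at the filled points in 7 of the 10 panels.

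Between the strains, the water-given SAMP8 mice had higher averages than SAMR1 for 8 of the 10 genes, and 5 were higher by at least 0.3: *Fosl2* by 0.76, *Egr3* by 0.61, *Egr1* by 0.49, *Egr2* by 0.39 and *Fosb* by 0.35. Over all probe sets, 2.84% were higher in SAMP8 control by this much and 2.50% were lower. None of the 10 was lower by 0.3, and *Junb* (-0.18) and *Ier2* (-0.11) were the 2 below 0. The median over the 10 genes was 0.30, against 0.00 over all probe sets. *Fos*, *Nr4a1* and *Egr4* differed by 0.15, 0.14 and 0.25, and 5037, 5585 and 1946 of 45077 probe sets were at least as much higher. *Fosl2* stood further out, with 123 probe sets at or above its value, but its dimmer probe set differed by 0.05. That of *Egr3* differed by 0.00, and both *Egr2* probe sets were past the threshold, at 0.39 and 0.44.

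Set against SAMR1, the averages of STEE-fed SAMP8 fell into 3 sets of genes. *Fos*, *Junb*, *Egr2*, *Nr4a1* and *Egr4* were lower in STEE-fed SAMP8 than in SAMR1, with log2 differences of -1.05, -0.87, -0.84, -0.43 and -0.32. *Egr1*, *Ier2* and *Fosb* were within 0.3 of SAMR1, at -0.08, -0.16 and 0.09. *Egr3* and *Fosl2* were higher, at 0.58 and 0.30, the latter exactly on the threshold. Their dimmer probe sets were at -0.02 and -0.01, and as means of their probe sets both genes were short of it, at 0.28 and 0.145. Over all probe sets, 2.53% were lower by at least 0.3 in this comparison and 3.66% were higher. This difference is the sum of the other 2, so it adds no further measurement.

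**Figure D3:**
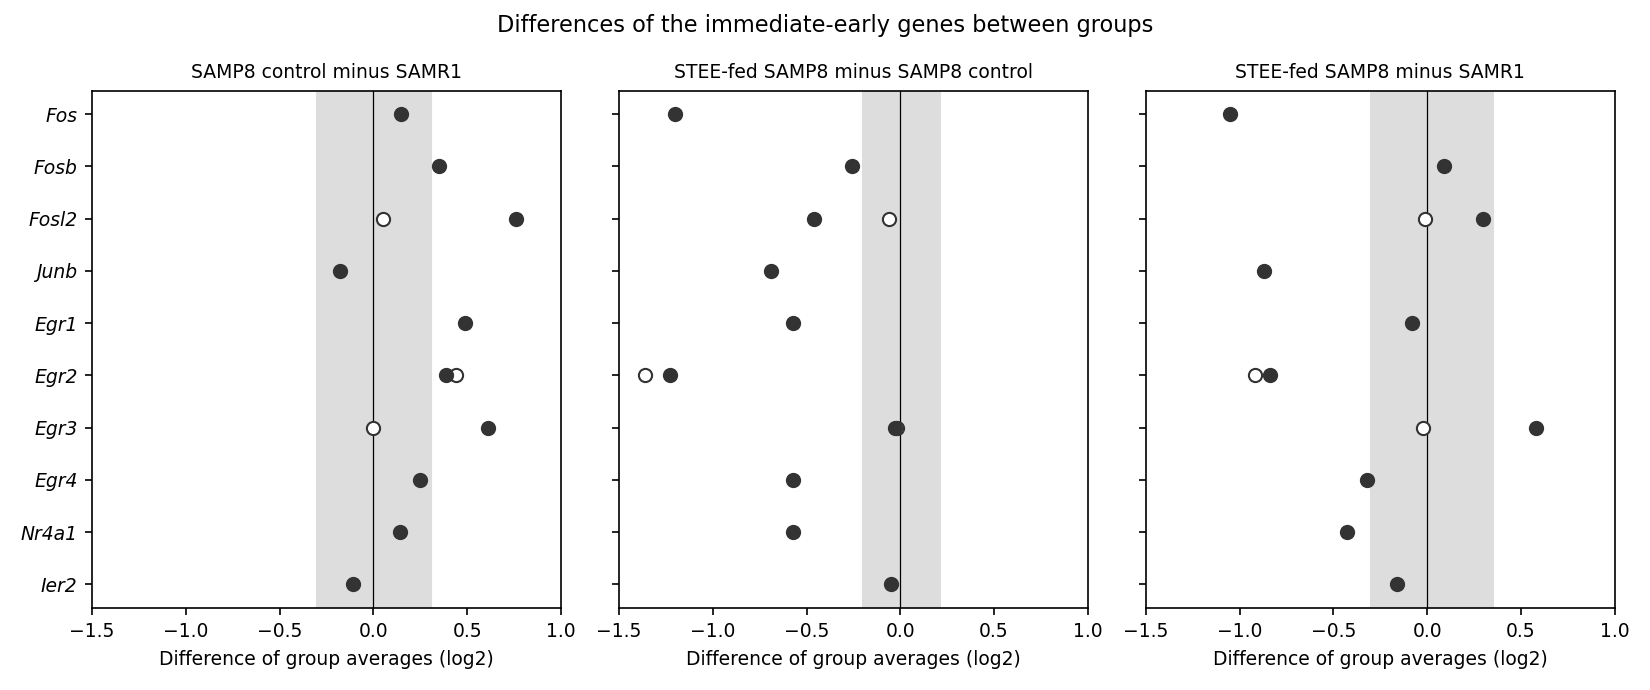
Differences of the deposited group averages on the log2 scale for the 10 genes in the 3 comparisons, with filled points for the brighter probe set and open points for the other, over a grey band that holds the middle 95% of all 45077 probe sets. For STEE-fed SAMP8 minus SAMP8 control, the *Egr2* probe sets at -1.36 (open) and -1.23 and *Fos* at -1.20 lie farthest left, while *Egr3* and *Ier2* lie within the band.

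Among 20 other immediate-early transcription regulators, 6 were lower with STEE by at least 0.3 and none was higher at the brightest probe set, with a median log2 difference of -0.09. *Klf6* was at 0.28 there and at up to 0.35 among its 5 probe sets. Besides *Nr4a3*, these were *Klf10* (5.60, 6.47 and 5.51 in SAMR1, SAMP8 control and STEE-fed SAMP8), *Ier5l*, *Klf4*, *Ier5* and *Klf2*; *Ier5* differed by -0.33 at its brightest probe set and by 0.15 at another. *Klf10* had the largest strain difference of this list, 0.87, followed by *Ier5* and *Klf4* at 0.51 and -0.51. *Klf4* and *Klf2* are also expressed in endothelium, and for *Klf4* the averages went from 5.07 in SAMR1 to 4.56 in SAMP8 control and 4.10 with STEE. The other probe set of *Klf4* differed by 0.06 between the strains and by -0.28 with STEE. *Npas4*, an activity-dependent gene of neurons, was nearly level at 5.31, 5.30 and 5.24. *Atf3*, a stress-induced member, was 3.37, 3.50 and 3.33, below the median signal of the array in all groups.

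With STEE, genes upstream of these factors differed less. Of 21 kinases and transcription factors, 1 was lower with STEE by at least 0.3 and 1 was higher, and the median difference was 0.00. The one that was lower was *Srf*, which encodes the factor that binds the CArG box and is itself inducible, with 6.11 in SAMR1, 6.49 in SAMP8 control and 6.17 with STEE, a difference of -0.32 that was -0.08 at its other probe set. The one that was higher was *Mrtfa* (on the array as *Mkl1*), an SRF coactivator, at 6.56, 6.55 and 6.89. *Creb1* differed by -0.08 with STEE and the kinase gene *Mapk3* by -0.03. Between the strains, *Srf* at 0.38 was the only 1 of the 21 past the threshold at its brightest probe set. Other probe sets of *Crem* (0.52), *Camk4* (0.47), *Mef2a* (0.45) and *Camk2a* (-0.57) were past it.

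Feedback inhibitors of the pathway were also represented. Of 16 at their brightest probe sets, 8 were above SAMR1 in SAMP8 control by at least 0.3 and none was below it, and 5 were lower with STEE and none was higher. *Nab2*, a corepressor of EGR proteins that they themselves induce, had averages of 6.08 in SAMR1, 6.52 in SAMP8 control and 5.95 with STEE, the order of groups of *Egr1*. *Dusp6* and *Dusp1*, phosphatases that switch off MAP kinases, differed by -0.41 and -0.48 with STEE. Between the strains (SAMP8 control minus SAMR1), *Dusp6* differed by 0.49 and *Dusp1* by -0.19. *Dusp14* had the largest strain difference of the list at the brightest probe sets, 0.64, and differed by -0.26 with STEE. Other probe sets of *Spry2* (1.04), *Rgs4* (0.86), *Spry4* (0.34) and *Btg2* (-0.51) were also past the threshold between the strains.

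Of 19 activity-induced effector genes at their brightest probe sets, 7 were above SAMR1 in SAMP8 control by at least 0.3 and 1, *Ccn1*, was below it (-0.54), and 4 were lower with STEE. *Arc*, which encodes a synaptic protein, was 7.64, 8.36 and 7.23 in the same order, and *Gadd45b*, *Tiparp* and *Per1* were the other 3, at -0.76, -0.48 and -0.34 with STEE. At their brightest probe sets, the neuronal genes *Homer1*, *Nptx2*, *Vgf*, *Inhba* and *Ptgs2* had both SAMP8 groups above SAMR1, as did *Egr3*, but were highest with STEE. With it they differed from SAMP8 control by 0.10, 0.07, 0.06, 0.09 and 0.24. Over its 6 probe sets, *Homer1* ranged from 0.25 to 1.81 between the strains and from -0.09 to 0.23 with STEE. The other probe set of *Inhba* was at -0.02 between the strains. *Plk2*, *Nrn1* and *Pim1* had the same order of groups, with strain differences of 0.20, 0.15 and 0.09. Other probe sets of *Bdnf* (0.57) and *Tiparp* (0.31) were past the threshold between the strains, and 1 of *Baz1a* (-0.30) was with STEE.

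**Figure D4:**
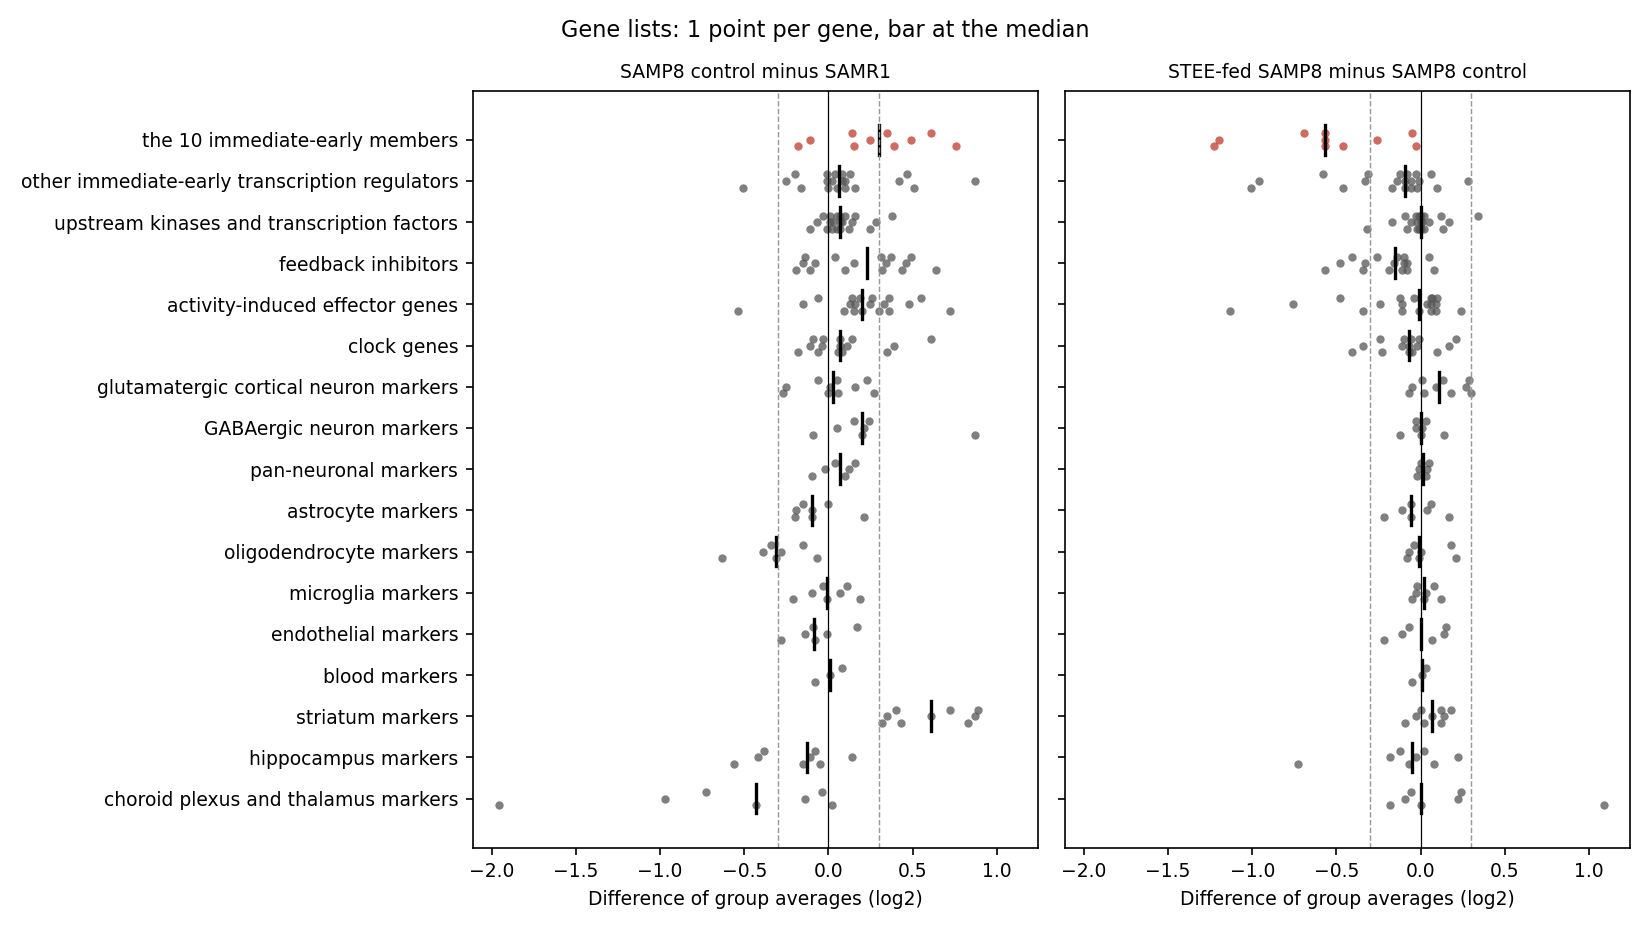
Log2 differences of the group averages, 1 point per gene at its brightest probe set, for the 10 immediate-early genes (red) and 16 gene lists (grey), with a bar at each median and dashed lines at 0.3 either side of 0. With STEE the median of the 10 genes was -0.57, and no other list had a median below -0.15; between the strains all 9 striatum markers lay right of 0.3.

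Averages of several region markers differed between SAMP8 control and SAMR1, where strain and the tissue taken cannot be told apart. Of 9 markers of striatum, a region beneath the cortex, all were above SAMR1 in SAMP8 control, by 0.32 to 0.89 with a median of 0.61; their group averages ran from 6.21 to 9.0 in SAMR1 and from 6.56 to 9.72 in SAMP8 control. Of 7 markers of choroid plexus and thalamus, 4 were lower in SAMP8 control by at least 0.3, with *Ttr* at -1.96 and *Tcf7l2* at -0.97. Oligodendrocyte markers were lower in 7 of 7, by up to -0.63 for *Mog*, and 3 of 8 hippocampus markers were lower by at least 0.3. Of these hippocampus markers, *Dsp* (3.86 in SAMR1, 3.30 in SAMP8 control) and *Lct* (3.62 and 3.20) lay below the array's median signal. So did *Kcnj13* (3.68 and 3.25) of the choroid plexus and thalamus list. *Vip* (0.87), 1 of 7 GABAergic markers, was higher, and no glutamatergic, pan-neuronal, astrocyte, microglia, endothelial or blood marker was past the threshold between the strains at its brightest probe set. Other probe sets of *Camk2a* (-0.57), *Syt1* (-0.40 and 0.39), *Gja1* (0.61) and *Flt1* (-0.30) were, as was another of the GABAergic marker *Gad1* (0.65). Of 15 clock genes, 3 were higher in SAMP8 control and none was lower at the brightest probe set, while other probe sets of *Tef* (-0.39) and *Clock* (0.30) were past the threshold. These differences lie in the same comparison as the strain differences of the immediate-early genes, and their part in them was not tested. In bulk cortex, fewer cells of a type and less RNA per cell cannot be told apart.

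At their brightest probe sets, most region and cell type markers lay near their SAMP8 control values with STEE. The 9 striatum markers differed from SAMP8 control by between -0.09 and 0.18, and the 10 markers of glutamatergic cortical neurons, which express many of these genes after activity, by between -0.07 and 0.30. The defining markers *Slc17a7* and *Tbr1* were well above the median signal of 4.15 to 4.16 in every group, the lowest being 7.05. The 6 pan-neuronal markers differed by -0.02 to 0.05, the 7 microglia markers by -0.05 to 0.12, the 7 oligodendrocyte markers by -0.08 to 0.21 and the 7 astrocyte markers by -0.22 to 0.17. The 7 GABAergic markers lay between -0.12 and 0.14, the 6 endothelial markers between -0.22 and 0.15 and the 3 blood markers between -0.05 and 0.03. At the brightest probe sets, 3 markers were past the threshold with STEE: *Calb2* (-0.73) of the hippocampus list, *Ttr* (1.09) of the choroid plexus and thalamus list and *Cux2* (0.30) of glutamatergic neurons. Apart from *Calb2*, the hippocampus list lay between -0.18 and 0.22. Apart from *Ttr*, the choroid plexus and thalamus list lay between -0.18 and 0.24. Among markers short of the threshold there, other probe sets of *Syt1* (0.35), *C1qb* (0.33) and *Mbp* (0.30) were past it. Of the 10 glutamatergic markers 8 were above 0, with *Tbr1* at 0.29 and *Fezf2* at 0.27. Of 15 clock genes, 2 were lower with STEE by at least 0.3, *Bhlhe40* (-0.41) and *Per1* (-0.34), both of which neuronal activity also induces, and 12 of the 15 were below 0, with a median of -0.07. *Per2* was at -0.24, and at -0.36 at another probe set, and *Ciart* at -0.23. Whether *Ttr*, *Calb2*, the glutamatergic markers or the hour of dissection had a part in the lower immediate-early averages was not tested.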

How the data were processed

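Cortical RNA of 6 mice, 2 in each group, was measured on Affymetrix mouse PM array strips after 3′ labelling. The authors summarised probe intensities by RMA in Expression Console, used Transcriptome Analysis Console, and deposited for 45077 probe sets the log2 signal of each group as a bi-weight average over its arrays, to 2 decimals. Their tables also hold linear fold changes, ANOVA p-values and FDR p-values of their own comparisons, which were not used here; values per mouse were not analysed here, and the number of arrays limits precision. The SAMP8 control averages were identical in both tables. Per the labels, groups followed the sample titles. Differences between deposited log2 averages were computed in Python 3.11.15 with numpy 2.4.6 and pandas 2.3.3, and figures were drawn with matplotlib 3.10.9. The calculation was tested on simulated data. A gene was represented by its probe set with the highest average over the groups. The 10 members and the 16 gene lists were chosen with earlier results of these data known. Genes named were the members and the 3 largest differences per list and comparison, of which the most relevant are printed. Genes needed to account for a count and the 8 genes nearest to the members' median were also named. *Npas4*, *Atf3*, *Jun*, *Jund*, *Nr4a2*, *Creb1*, *Mapk3*, *Klf6*, *Ciart* and *Slc17a7* were named after their values were seen. The same holds for the genes whose dimmer probe sets are given and the effector genes highest with STEE. Alternatives were another representation of a gene, centring, a filter on dim probe sets and thresholds of 0.2 and 0.5. Promoters came from the RefSeq table of GRCm38.p6.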

Additional observations from a re-analysis of the deposited data

How the results depend on the processing

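Counts and medians of the 10 genes mostly changed little with the processing. With a threshold of 0.5 in place of 0.3, the genes higher in SAMP8 control than in SAMR1 numbered 2 in place of 5, and STEE-fed SAMP8 against SAMR1 gave 1 higher and 3 lower in place of 2 and 5; 6 genes in place of 7 were lower with STEE than in SAMP8 control. With each gene as the mean of its probe sets, 6 genes in place of 7 were lower with STEE than in SAMP8 control, as *Fosl2* was at -0.26, and 0 genes in place of 2 were higher in STEE-fed SAMP8 than in SAMR1, since the dimmer probe sets of *Fosl2* and *Egr3* were level. Differences of single genes were recomputed with the mean of a gene's probe sets, centred groups or a filter on dim probe sets. A further setting left out probe sets named with an s, x or a suffix. Of these 120 differences, none past the threshold changed sign, and 5, all of *Fosl2* or *Egr3*, moved by 0.1 or more. Most of the 120 could not move. All 10 representing probe sets passed the filter and carried no s, x or a suffix, so these 2 settings returned the same values. The mean could move only the 3 genes with 2 probe sets, and the group medians of 4.15 to 4.16 left centring little to move. No paired analysis was possible because the deposited columns are group averages and carry no replicate numbers. For the same reason leaving out each mouse in turn was not run.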

Other observations

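The gene with the lowest difference of all with STEE was not a named immediate-early factor but *5330430B06Rik*, for which the authors' mean log2 signal was 4.72, 5.83 and 4.18 for SAMR1, SAMP8 control and STEE, and the difference with STEE was -1.65. It was noticed after its values were seen. With *Arc* and *Nr4a3* it made up the rest of the 6 probe sets lower by at least 1 on the log2 scale.

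The 8 genes outside the members whose pair of log2 differences lay closest to the members' median (0.30 between the strains and -0.57 with STEE, Euclidean distance over 3 group averages) were *Coq10b*, *5430420F09Rik*, *Pdgfb*, *Tnfrsf25*, *LOC552911*, *Nab2*, *Hist2h2bb* and *Dlx2*, at distances of 0.030 to 0.16. *Coq10b*, which encodes a mitochondrial coenzyme Q-binding protein, was 6.53 in SAMR1, 6.83 in SAMP8 control and 6.29 with STEE. *Pdgfb*, a growth factor gene, was 4.87, 5.25 and 4.73. *Tnfrsf25* was 3.73, 3.95 and 3.31, below the median signal of the array in each group. With 3 averages per gene, such closeness is a description and says nothing of shared control.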
